A study of Homo sapiens with 6 samples.

Results

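Open chromatin was examined in the clusters that hold most human replication-dependent histone genes, together with the tRNA genes that lie among them. The members were the ATAC-seq intervals with at least 1 base in hg19 chromosome 6 from 25700000 to 29000000 (histone cluster 1) or chromosome 1 from 149780000 to 149900000 (histone cluster 2). Over 6 libraries, overlapping intervals were merged into sites. The clusters held 135 of 17466 merged sites, with 125 on chromosome 6 and 10 on chromosome 1. Position alone chose the members, and 1 of them, on chromosome 1, crosses the edge of the region.

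ATAC-seq marks open DNA by the adapters that a transposase inserts there. The cells were K562, an established human leukaemia line, in 3 modified forms. One carried the vector as control, another overexpressed wild-type SLFN11, and the third overexpressed an SLFN11 mutant, E669Q, altered in the ATPase domain. Each line received DMSO, or 1000 nM camptothecin (CPT) for 4 h, giving 6 groups of 1 library each. No difference therefore has a replicate check. The sources used here do not give how the constructs were introduced or whether each line is 1 clone. SLFN11 is recruited to stressed replication forks, and CPT stalls forks by trapping topoisomerase I on DNA. The series asked how SLFN11 acts on chromatin under such stress.

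Replication-dependent histone genes encode the core histones H2A, H2B, H3 and H4 and the linker histone H1 that package newly copied DNA. They are transcribed mainly in S phase, lie in compact clusters, and are co-ordinated with DNA synthesis, so that transcription falls when replication is blocked. tRNA genes are short, are transcribed by RNA polymerase III from promoters inside the gene, and are often found open in dividing cells. RefSeq (GRCh38.p14), read in gene order from SLC17A1 to ZNF311, lists 55 protein-coding histone genes in cluster 1: 6 of H1, 12 of H2A, 15 of H2B, 10 of H3 and 12 of H4. The same stretch has 144 tRNA genes and 14 zinc finger genes named ZNF, ZSCAN or ZKSCAN. Cluster 2, from H2BC18 to BOLA1, has 11 histone genes. The peak lists carry no gene names and use another build, hg19, so that no site below is tied to a gene.

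Promoter DNA of these genes is shown to give the kind of sequence that open sites in the clusters can cover. For each histone family, the 120 bases before the start are printed 5′ to 3′ on the gene's strand. The gene is the first along the main run of cluster 1, from H1-1 onward, that has the letters TATAAA in those bases. Capitals mark 3 promoter elements on either strand. TATAAA is the core element that places the start. CCAAT is a site of the factor NF-Y. ATTTGCAT is the octamer, bound by OCT1 at H2B genes. The sequences are from RefSeq, build GRCh38.p14, chromosome 6. H3C1 is on the plus strand and the other 4 genes on the minus strand.
H1-1: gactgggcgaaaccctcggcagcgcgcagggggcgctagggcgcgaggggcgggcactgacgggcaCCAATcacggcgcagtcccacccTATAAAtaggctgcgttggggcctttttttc
H2AC4: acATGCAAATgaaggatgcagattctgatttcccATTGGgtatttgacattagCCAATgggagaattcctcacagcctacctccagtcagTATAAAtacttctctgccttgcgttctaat
H2BC3: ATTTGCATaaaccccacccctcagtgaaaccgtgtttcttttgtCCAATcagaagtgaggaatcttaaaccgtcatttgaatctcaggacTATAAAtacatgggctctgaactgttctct
H3C1: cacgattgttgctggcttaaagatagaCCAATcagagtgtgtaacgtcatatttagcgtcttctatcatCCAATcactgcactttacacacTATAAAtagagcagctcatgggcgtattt
H4C2: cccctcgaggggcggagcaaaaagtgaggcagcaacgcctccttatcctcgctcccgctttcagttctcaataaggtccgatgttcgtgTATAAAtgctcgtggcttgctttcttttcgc

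Promoters of 61 of the 66 histone genes of both clusters were matched, each from 250 bases before to 50 bases after the start. TATAAA on either strand was in 41 of them (67.2%), against 11.5% of all 35116 promoters of the same length in the table. The octamer was in 14 of 17 H2B and 11 of 15 H2A promoters, in 1 of 11 H3 promoters, and in none of 6 H1 or 12 H4 promoters, against 1.77% of all promoters. CCAAT was in every H1, H2A, H2B and H3 promoter matched (49 in all) and in 3 of 12 H4 promoters, against 34.6% of all promoters. No motif overlaps another by its letters in the lines printed. These matches describe the letters and not the binding of a factor.

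The number of member intervals ranged from 25 to 86 between libraries. Both vector libraries had 25. Wild-type SLFN11 had 86 after DMSO and 29 after CPT. E669Q had 51 after DMSO and 64 after CPT. Depth relative to the shallowest library, recovered from the deposited values, was 1.00, 1.09, 1.72, 1.09, 1.33 and 2.22, in the order vector, wild-type SLFN11, E669Q and DMSO before CPT in each, and its part in these numbers was not tested. Wild-type SLFN11 with DMSO held the most members, 86 in a list of 11651 intervals. E669Q with CPT, the deepest library, held 64 in a list of 12337. When each list was limited to its 5246 strongest intervals, wild-type SLFN11 had 25 members after DMSO and 27 after CPT, and E669Q had 33 and 12. Both directions were thus reversed in these lists. The limit changes the strength of the intervals as well as list length, and the cause was not tested.

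As a share of its list, the clusters took 0.477% of intervals (95% Clopper-Pearson interval 0.309 to 0.703) in vector with DMSO and 0.431% (0.279 to 0.635) with CPT. For wild-type SLFN11 the share was 0.738% (0.591 to 0.911) with DMSO and 0.521% (0.349 to 0.748) with CPT. In the E669Q line it was 0.610% (0.454 to 0.801) and 0.519% (0.400 to 0.662). The share was thus lower with CPT in 3 of 3 lines, with changes of -0.0460, -0.217 and -0.0909 percentage points. The intervals overlap, and an exact sign-flip permutation test over the 3 lines gave p = 0.25, the smallest it can give.

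The chromosome 6 region was denser in intervals than the rest of its chromosome in each library. It held 7.27 intervals per Mb in both vector libraries, against 2.76 (DMSO) and 2.92 (CPT) per Mb elsewhere on chromosome 6. In wild-type SLFN11 the values were 24.8 against 5.12 with DMSO and 8.48 against 2.46 with CPT. In E669Q they were 14.8 against 3.33 with DMSO and 17.9 against 5.14 with CPT. The ratio of region to rest ran from 2.49 in vector with CPT to 4.85 in wild-type SLFN11 with DMSO, and was lower with CPT than with DMSO in each line. It was not recomputed in lists of equal length.

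**Figure D1:**
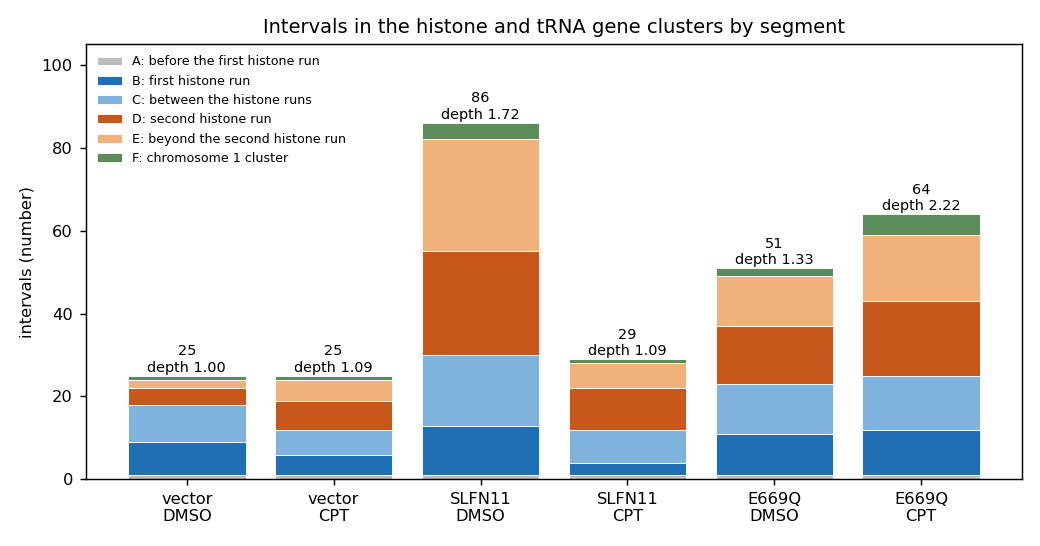
Number of member intervals (vertical axis) in each of the 6 libraries, stacked by segment of the clusters, with the total and the relative depth above each bar. Wild-type SLFN11 with DMSO holds 86 intervals, of which 27 lie in the segment beyond the second histone run, against 2 to 16 there in the other libraries.

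Segments were set by hand from the general layout of the locus, without an hg19 annotation. On chromosome 6 they start at 25700000 (before the main histone genes), 26000000 (first histone run), 26300000 (between the runs, with butyrophilin and tRNA genes), 27050000 (second histone run, also rich in tRNA genes) and 27900000 (zinc finger, olfactory receptor and tRNA genes, up to 29000000). The first histone run held 8 intervals in vector with DMSO and 5 with CPT, 12 and 3 in wild-type SLFN11, and 10 and 11 in E669Q. At 26.7 to 40 intervals per Mb with DMSO it was the densest chromosome 6 segment in each line.

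The second histone run held 4 intervals in vector with DMSO and 7 with CPT, 25 and 10 in wild-type SLFN11, and 14 and 18 in E669Q. The segment beyond it held 2 and 5 in vector, 27 and 6 in wild-type SLFN11, and 12 and 16 in E669Q. Between the runs there were 9 and 6 in vector, 17 and 8 in wild-type SLFN11, and 12 and 13 in E669Q. In wild-type SLFN11 each of these 4 segments held fewer intervals with CPT, at 0.222 to 0.471 times the DMSO number. All intervals outside the clusters were at 0.478 times their DMSO number in that line, and depth at 0.634 times. The part of depth was not tested. In the vector line the first run and the stretch between the runs held fewer with CPT, and the second run and the segment beyond it held more. These are small numbers from single libraries.

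The site map shows how seldom a member site recurred. Sites were joined only by direct overlap, so that close neighbours listed by different libraries count as separate sites. Of 124 gaps between neighbouring chromosome 6 sites, 15 were under 500 bp, the smallest 6 bp. Of 135 sites, 69 (51.1%, 95% interval 42.4 to 59.8) were listed in 1 library, 26 in 2, 17 in 3, 12 in 4, 8 in 5, and 3 (2.22%, 0.461 to 6.36) in all 6. Over all 17466 sites, 38.1% were in 1 library and 12.3% in all 6. The 69 sites seen once had a median width of 185 bp, against 513 bp for the 23 sites in 4 or more libraries. A merged site widens as libraries are added, so that these widths are not independent of the count.

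**Figure D2:**
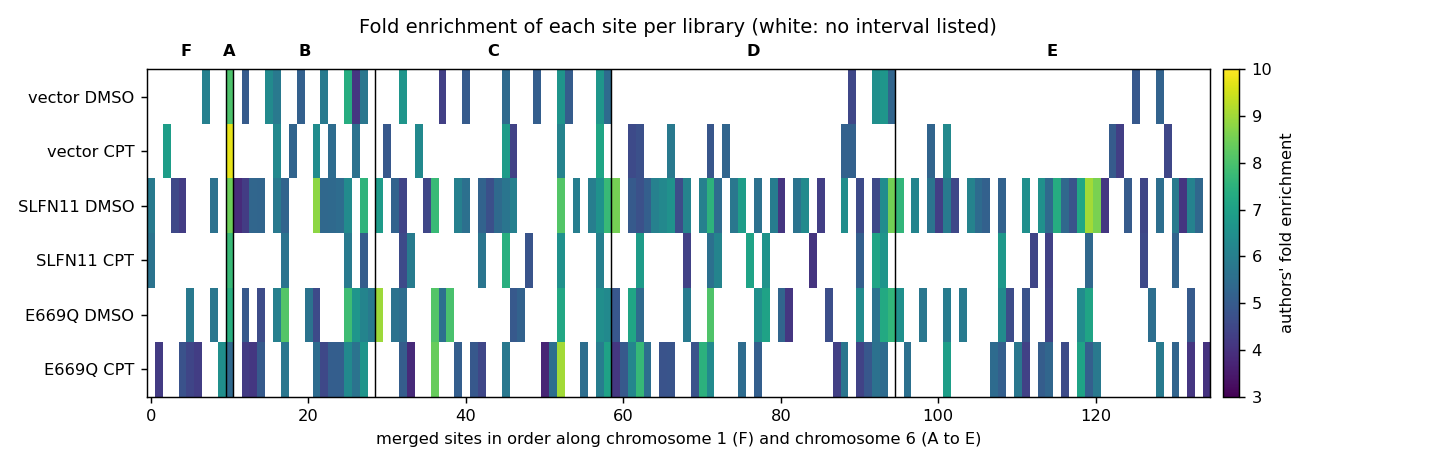
Each column is a merged site, in order along chromosome 1 (F) and then chromosome 6 (A to E), each row is a library, and colour gives the authors' fold enrichment on a scale from 3 to 10. White means that no interval was listed there, and only 3 columns, 1 in segment A and 2 in segment C, are filled in all 6 rows.

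Recurrence is given by segment, with no test between segments. In the first histone run 7 of 18 sites (38.9%) were in at least 4 libraries and 11 of 18 (61.1%) were in a vector library. In the second histone run these were 6 of 36 (16.7%) and 10 of 36 (27.8%), and between the runs 5 of 30 (16.7%) and 12 of 30 (40%). Beyond the second run only 4 of 40 sites (10.0%) were in at least 4 libraries and 7 of 40 (17.5%) in a vector library. Elsewhere in the genome the values were 33.4% and 43.9%. The longest gap between neighbouring chromosome 6 sites of the region ran from 27871053 to 28048447, 177395 bp, against a median gap of 14837 bp.

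**Figure D3:**
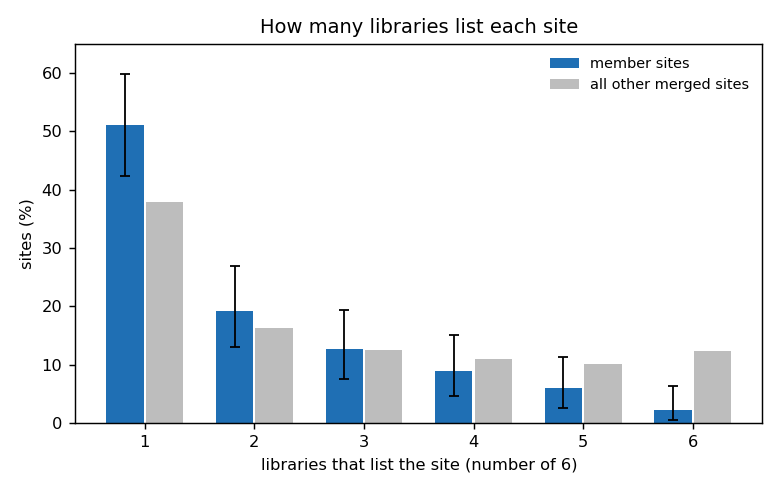
Share of sites (vertical axis, percent) by the number of libraries that list the site (horizontal axis, 1 to 6), for the 135 member sites and for the 17331 other sites. Bars on the member columns are 95% Clopper-Pearson intervals, and the member sites exceed the others at 1 library (51.1%) and fall below them at 6 (2.22%).

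The 3 sites found in all 6 libraries lay outside both histone runs. The strongest was on chromosome 6 from 25992380 to 25993382, just before the first run. Its fold enrichment, the authors' ratio of the summit over local background, was 8.04 and 9.73 in vector (DMSO, then CPT), 8.46 and 7.72 in wild-type SLFN11, and 7.39 and 5.38 in E669Q. Its summit pileup, the number of fragments over the summit, was 14, 16, 22, 14, 14 and 13 in the same order. Divided by relative depth this was 14, 14.7, 12.8, 12.8, 10.5 and 5.86, so that the E669Q library with CPT was the lowest on both scales.

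The other 2 lay between the runs. That from 26659695 to 26660138 had folds of 6.63 and 6.13 in vector (DMSO, then CPT), 8.14 and 6.54 in wild-type SLFN11, and 7.19 and 9.02 in E669Q. Here E669Q with CPT was the highest. Its pileups per relative depth were close together, from 7.36 to 9.46 fragments. The site from 26924002 to 26924827 was the most even of the 3 in fold, with 6.69 and 7.12 in vector, 6.56 and 6.05 in wild-type SLFN11, and 6.45 and 5.97 in E669Q.

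Another 8 sites were in 5 libraries, and in 7 of them the missing library was a vector library. Vector with CPT was missing at 5, which lay from 26216730 to 26217448 and from 26285430 to 26286129 in the first run, from 26322693 to 26323406 between the runs, and from 27806005 to 27806517 and from 27860863 to 27861249 in the second run. Over all sites 2.39% were missing from vector with CPT alone. Vector with DMSO alone was missing at 2 sites of the second run, from 27114457 to 27115163 and from 27440445 to 27441193, against 3.63% of all sites. The eighth, from 26537606 to 26538024, lacked E669Q with DMSO. Among the 17331 other sites, 1751 were in 5 libraries, of which 413 lacked vector with CPT and 632 lacked vector with DMSO. The vector libraries had relative depths of 1.00 (DMSO) and 1.09 (CPT), and the part of depth was not tested. At the site from 26216730 the fold was 7.37 in vector with DMSO, 6.39 and 5.85 in wild-type SLFN11 (DMSO, then CPT), and 7.81 and 6.33 in E669Q. At the site from 27860863 it was 6.67 in vector with DMSO, 6.41 and 6.64 in wild-type SLFN11, and 7.24 and 5.45 in E669Q. No member site was missing from wild-type SLFN11 with CPT alone (0 of 135, which allows a share of up to 2.70% by the exact 95% interval), against 3.02% of all sites. Only a site in exactly 5 libraries can show that pattern, and 8 members (5.93%) were such sites, against 10.1% of the other sites. The absence is thus not separate from the low recurrence of members.

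**Figure D4:**
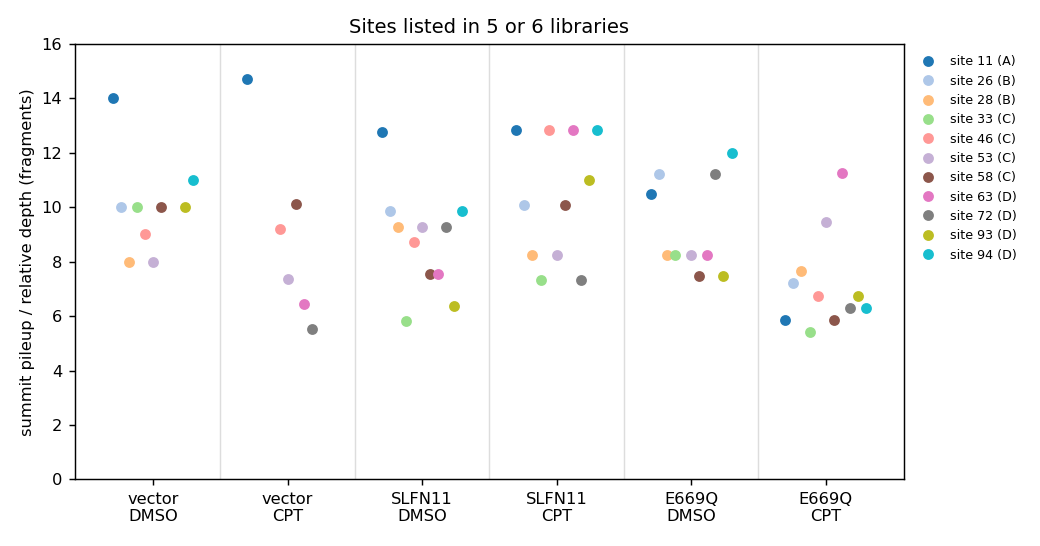
Summit pileup divided by relative depth, in fragments (vertical axis), of the 11 sites listed in 5 or 6 libraries, by library; each point is 1 site in 1 library and each colour a site, with its segment in brackets. Values run from 5.40 to 14.7 fragments, and site 11, before the first run, is the highest in both vector libraries.

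Member intervals had lower folds than the rest of their list in each library. The median fold of members was 5.45 against 6.03 for the rest in vector with DMSO and 5.29 against 6.13 with CPT. It was 5.68 against 6.17 and 5.66 against 5.91 in wild-type SLFN11, and 5.87 against 6.08 and 5.18 against 6.05 in E669Q. The mean difference over the 6 libraries was -0.54 ± 0.28 (SD, n = 6), lower in 6 of 6, with an exact two-sided sign-flip permutation p = 0.031, the smallest that 6 libraries can give. Adjusted by Benjamini-Hochberg over the 4 properties compared it was 0.125. No member reached a fold of 10, and the highest was 9.73, while the highest fold of the whole lists ran from 52.8 to 56.7.

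The summit pileups of members did not stand apart. Their median was 8, 8, 11, 9, 10 and 11 fragments in the 6 libraries, against 8, 9, 11, 9, 9 and 11 for the rest (mean difference 0 ± 0.632, SD, n = 6, exact sign-flip permutation p = 1). The local background, as a multiple of the lowest background in the library, was higher at members in 5 of 6 libraries. The largest gap was in wild-type SLFN11 with CPT, at 3.28 against 2.56 (mean difference 0.266 ± 0.321, SD, n = 6, exact permutation p = 0.15625, adjusted 0.208). Fold sets the pileup plus 1 over the local background plus 1, before that scaling. Median width was 181 bp against 244 bp in vector with DMSO, 201 against 234 with CPT, 302 against 283 and 233 against 239 in wild-type SLFN11, and 228 against 267 and 264.5 against 270 in E669Q. That difference did not hold up (mean -21.25 ± 29.3 bp, SD, n = 6, exact permutation p = 0.15625, adjusted 0.208).

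With CPT, more members were lost than kept in the vector and wild-type SLFN11 lines, and more kept than lost in E669Q. An interval of the DMSO list is called kept where an interval of the CPT list of its line overlaps it by at least 1 bp, and lost otherwise, and a CPT interval without a DMSO overlap is called gained. In wild-type SLFN11 64 of 86 members were lost, against 59.5% of all intervals of that list, and 22 (25.6%, 95% interval 16.8 to 36.1) were found again. Of its 29 CPT members 6 were gained, against 15.1% of that whole list. The CPT library was the shallower one, at 0.634 times the DMSO depth, and its part in the loss was not tested.

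In the vector line 18 of 25 DMSO members were lost, against 39.5% of the whole list, and 18 of 25 CPT members were gained, against 45.1% of the whole list. Only 7 members (28.0%, 12.1 to 49.4) were found again, at nearly equal depth (1.09 times). In the E669Q line 22 of 51 DMSO members were lost, against 19.0% of the whole list, and 36 of 64 CPT members were gained, against 45.2% of the whole list. There 29 members (56.9%, 42.2 to 70.7) were found again, with a CPT library 1.66 times as deep.

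Members were found again less often than the rest of the DMSO list in 3 of 3 lines. The rest was found again in 60.7% of cases in vector, 40.6% in wild-type SLFN11 and 81.1% in E669Q. The mean difference was -24.0 ± 8.85 percentage points (SD, n = 3 lines, exact sign-flip permutation p = 0.25, the smallest possible). The gap was also seen with a −log10 q of at least 5, but that split does not match strength between members and rest. Median pileups in that group were 10, 13.5 and 11 fragments for members (vector, wild-type SLFN11, E669Q), against 11, 14 and 12 for the rest. Among weaker intervals they were 7, 9 and 8, against 6, 7 and 7. With a −log10 q of at least 5, 3 of 8 members (37.5%) against 78.1% of the rest were found again in vector, 13 of 48 against 54.4% in wild-type SLFN11, and 17 of 25 (68.0%) against 92.0% in E669Q. Among weaker intervals it was 4 of 17 (23.5%) against 44.2%, 9 of 38 (23.7%) against 17.9%, and 12 of 26 (46.2%) against 68.0%, so that wild-type SLFN11 went the other way there.

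**Figure D5:**
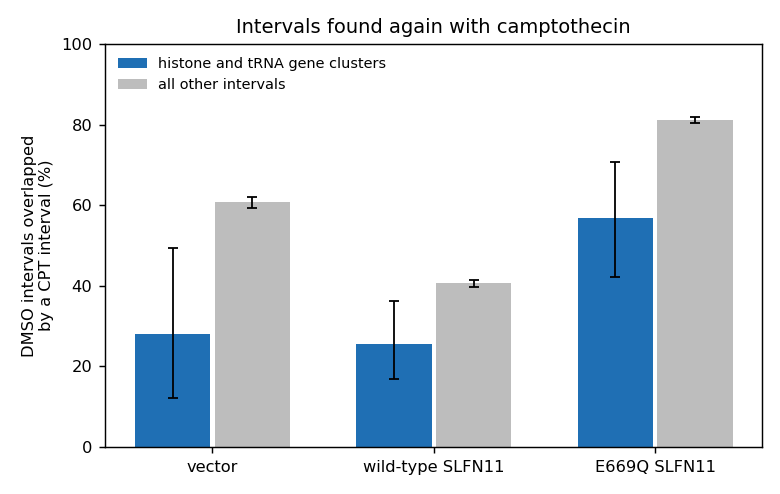
Share of the intervals of each DMSO list overlapped by an interval of the CPT list of the same line (vertical axis, percent), for the members and for all other intervals; bars are 95% Clopper-Pearson intervals, which cover counting error only. Members are lower in each line, at 28.0% against 60.7%, 25.6% against 40.6% and 56.9% against 81.1%.

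Within the DMSO lists, lost members had lower median pileups and widths than kept ones, a difference given here with no test. In wild-type SLFN11 their median pileup was 10.5 against 13 fragments and their median width 262 against 365 bp. In E669Q the pileups were 9 and 10 and the widths 216 and 257 bp, and in vector 7.5 and 8 fragments and 176.5 and 286 bp. In the first histone run 9 of 12 members were lost in wild-type SLFN11, 6 of 8 in vector and 3 of 10 in E669Q. In the second run 18 of 25, 3 of 4 and 6 of 14 were lost, and beyond it 22 of 27, 2 of 2 and 6 of 12. Between the runs it was 12 of 17, 6 of 9 and 6 of 12. Over the whole lists 59.5%, 39.5% and 19.0% of intervals were lost, in the same order of lines. No test was made between segments.

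The lost members with the highest fold in wild-type SLFN11 were on chromosome 6. They ran from 26172098 to 26172478 (fold 8.80, 20 fragments), from 28784891 to 28785147 (8.59, 15), from 27059579 to 27059827 (8.54, 12), from 27870669 to 27871052 (8.50, 14) and from 26365099 to 26365455 (7.75, 11). The site of the first of these, in the first histone run, was still listed in vector with CPT (6.39) and in both E669Q libraries (4.57 with DMSO, 5.45 with CPT). Those at 28784891, 27059579 and 26365099 were listed in E669Q with CPT and in no vector library.

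The site from 27870298 to 27871052, at the end of the second run, was the only member listed in all 3 DMSO libraries and in no CPT library, a pattern of 0.292% of all sites. Its fold with DMSO was 5.29 in vector, 8.50 in wild-type SLFN11 and 7.60 in E669Q, with pileups of 6, 14 and 10 fragments. No member was in all 3 CPT libraries and no DMSO library, against 0.149% of all sites. Counting sites in at least 2 libraries of 1 treatment and none of the other, 8 members were in DMSO libraries alone (3.08% of all sites) and 1 in CPT libraries alone (2.01% of all sites). Besides the site at 27870298, the sites in DMSO alone with the highest mean folds were from 26305450 to 26305766 (6.85 in wild-type SLFN11, 8.99 in E669Q) and from 28048448 to 28048995 (7.60 and 6.53). That in CPT alone, from 26328251 to 26328469, had 5.91 in wild-type SLFN11 and 3.83 in E669Q. These 3 sites were chosen after their values were seen.

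Wild-type SLFN11 gained 6 members. The 5 with the highest fold ran from 27521003 to 27521235 (7.07), from 27570153 to 27570410 (6.60), from 26328251 to 26328382 (5.91), from 26554154 to 26554501 (4.82) and from 28678070 to 28678201 (4.45), with summits of 5 to 10 fragments. That at 27570153 was also in E669Q with DMSO, where it was lost with CPT (7.04). Those at 27521003, 26554154 and 28678070 met no interval of another library by direct overlap. That at 28678070, however, lay within 500 bp of an interval of wild-type SLFN11 with DMSO, from 28678276 to 28678663. That at 26554154 lay close to an interval of E669Q with DMSO, from 26553899 to 26554037.

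In the E669Q line the lost members with the highest fold ran from 26305450 to 26305758 (8.99), from 26457897 to 26458135 (7.98), from 27870600 to 27870948 (7.60), from 27570164 to 27570344 (7.04) and from 28048448 to 28048910 (6.53). Gained members were led by those from 27356432 to 27356664 (7.5), then chromosome 1 from 149899684 to 149900138 (6.48), and chromosome 6 from 28891720 to 28891855 (5.88), from 28784886 to 28785161 (5.83) and from 26537669 to 26538024 (5.79). Of these 5, all but that on chromosome 1 were also in wild-type SLFN11 with DMSO.

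In the vector line the lost members with the highest fold were largely sites that the SLFN11 lines kept. The merged sites of those from 26216824 to 26217267 (7.37), from 27861036 to 27861237 (6.67), from 26323107 to 26323249 (6.65) and from 27806043 to 27806217 (6.49) were each in all 4 libraries of the SLFN11 lines. By direct overlap, that at 26323107 met no interval of wild-type SLFN11 with DMSO. Likewise that at 27806043 met none of wild-type SLFN11 with CPT. That from 26056139 to 26056719 (6.34) met no interval of another library by direct overlap. It lay close to the site from 26055319 to 26055981, which was listed in SLFN11 libraries. The gained members were led by chromosome 1 from 149804133 to 149804557 (6.89), and chromosome 6 from 26172100 to 26172323 (6.39), from 26336770 to 26337175 (6.32), from 28303032 to 28303432 (6.29) and from 27219309 to 27219729 (5.82). Those at 149804133 and 26336770 were in no other library.

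At sites listed with both treatments, pileup per relative depth changed differently in the 3 lines. In wild-type SLFN11 it was higher with CPT at 15 of 22 member sites, with a median log2 ratio of 0.29, against -0.02 at the other sites. In E669Q it was lower with CPT at 25 of 29, with a median of -0.56 against -0.25. In vector it was higher at 6 of 7, with a median of 0.07 against -0.06. Only sites that passed the listing threshold in both libraries of a line are counted. The CPT library was the shallower one in wild-type SLFN11 and the deeper one in E669Q, for members and other sites alike. The part of depth and of the threshold in these values was not tested.

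Between lines, most member sites lacked a vector interval. Of 135 sites 92 (68.1%, 59.6 to 75.9) were in an SLFN11 library and no vector library, against 56.2% of all sites, and 15 (11.1%) in a vector library alone, against 4.16%. Both SLFN11 lines, in at least 1 library each, shared 33 of the 92, which is 24.4% of the 135 sites, against 3128 of the 17331 other sites (9726 of which were in an SLFN11 library and no vector library). The 2 deepest libraries, those of E669Q after CPT and wild-type SLFN11 after DMSO, shared 11 sites that no other library listed, against 5.42% of all sites. With DMSO 15 of 25 vector members were found in wild-type SLFN11 (60.0%, against 84.7% for the rest of the vector list) and 14 in E669Q (56.0% against 70.2%). With CPT 6 of 25 were found in wild-type SLFN11 (24.0% against 55.4%), at a depth of 1.09 in both, and 13 in E669Q (52.0% against 84.4%).

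Sharing between the SLFN11 lines was read the same way. With DMSO 36 of 51 E669Q members were in the wild-type SLFN11 list (70.6%, 56.2 to 82.5, against 76.7% of the rest), and with CPT 19 of 29 wild-type SLFN11 members were in the E669Q list (65.5%, 45.7 to 82.1, against 84.9%). In the other direction it was 35 of 86 with DMSO (40.7% against 54.8%) and 18 of 64 with CPT (28.1% against 38.4%). The part of depth, which is lowest in the vector line with DMSO, in these overlaps was not tested.

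Only 5 sites were listed 4 times in the SLFN11 lines and never in the vector line, 3.70% of members against 3.09% of all sites. From 28770428 to 28770921 the fold was 9.02 with DMSO and 5.38 with CPT in wild-type SLFN11, and 7.08 and 5.12 in E669Q. From 26123950 to 26124613, in the first run, it was 5.26 and 5.65, then 8.12 and 5.76. The site from 28510496 to 28510947 had 5.21 and 6.72, then 6.39 and 5.12. The other 2 ran from 27799083 to 27799357 (4.38 to 6.39) and from 28715270 to 28715823 (4.34 to 5.41). In E669Q the fold was lower with CPT at 4 of the 5. At the site from 28510496, however, the DMSO and CPT intervals of E669Q did not overlap and were called lost and gained. Its E669Q folds are thus from different stretches. In wild-type SLFN11 the fold was lower with CPT at the sites from 28770428 and 28715270 and higher at the others. A single site had the mirrored pattern, from 27791961 to 27792201 in the second run, with 4.48 in vector with DMSO and 5.17 with CPT, against 0.12% of all sites.

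Histone cluster 2 on chromosome 1 was sparsely covered. It had 1 interval in each vector library, 4 and 1 in wild-type SLFN11 (DMSO, then CPT) and 2 and 5 in E669Q. None of its 10 sites was in more than 2 libraries. The site from 149783738 to 149784024 was in both wild-type SLFN11 libraries, with folds of 5.88 and 5.66, and that from 149822246 to 149822713 in both E669Q libraries, with 5.84 and 4.46. These were the only 2 kept with CPT within a line.

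The site from 149814271 to 149814549 was in the DMSO library of wild-type SLFN11 (4.24) and the CPT library of E669Q (4.76), and that from 149858156 to 149858620 in both SLFN11 lines with DMSO (5.63 and 5.79). The remaining 6 were in 1 library each. In E669Q with CPT these ran from 149784716 to 149784820 (4.22), from 149832401 to 149832570 (4.28) and from 149899684 to 149900138 (6.48). That from 149812710 to 149812894 (4.52) was in wild-type SLFN11 with DMSO, that from 149804133 to 149804557 (6.89) in vector with CPT and that from 149832612 to 149832803 (6.05) in vector with DMSO. Histone genes of this cluster include near-identical copies, and the sources used here do not give how reads that match several places were counted.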

How the data were processed

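The authors deposited 1 MACS2-style peak list per library, with hg19 coordinates. Tools listed in the submitters' processing notes, without roles or settings, are MACS2 2.1.2, Picard 2.9.2, SAMtools 1.8, Bowtie2 2.2.6 and Trimmomatic 0.39. Transposase shift, duplicate handling and read number are not given in the sources used here. Each deposited peak has a fold enrichment (a ratio over local background), a −log10 p-value, a −log10 q-value (lowest 2.00 to 2.01) and a score, equal to 10 × −log10 q cut to a whole number. No list was pooled over libraries.

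Entries with the same interval were joined and given the values of the strongest summit. Fold was taken as (pileup + 1) / (background + 1), as MACS2 computes it, and with −log10 p this gave a whole summit pileup for 98.7% to 99.3% of entries per list (within 0.001), and for all members. The lowest background over the step of 1 fragment in 10 kb gave relative depth. Overlap meant at least 1 bp. Coordinates are 1-based.

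Groups came from the labels. With 1 library per group, only sign-flip permutation tests over libraries or lines were possible, and they measure the spread between these libraries. Clopper-Pearson intervals cover counting error and treat intervals as independent. Named regions were the sites in all 6 libraries, the 5 gained and 5 lost members per line with the highest fold, the SLFN11-only and vector-only sites, and all of chromosome 1. The members, segments and alternatives were chosen with earlier results of these data known. The split by strength, the 500 bp rule and the treatment-only patterns were added after seeing the data. Scripts were tested on simulated data (scipy 1.17.1, numpy 2.4.6, pandas 2.3.3 and matplotlib 3.10.9 under Python 3.11.15).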

Additional observations from a re-analysis of the deposited data

Results flagged for a closer look

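The number of member intervals moved in opposite directions with CPT in the SLFN11 lines. The ratio of CPT over DMSO was 0.337 (95% interval 0.213 to 0.519, counting error only) in wild-type SLFN11 and 1.25 (0.855 to 1.85) in E669Q, with 1 library per group, and the difference between the lines was not tested. When a −log10 q of 5 or more was required, the E669Q ratio was 0.92 (25 and 23 intervals), so that both SLFN11 lines were then below 1. In the vector line the ratio was 1.00. For all other intervals the ratios were 0.478, 1.48 and 1.11, and for recovered depth 0.634, 1.66 and 1.09, in the order wild-type SLFN11, E669Q and vector. Per unit of relative depth, members went from 49.9 to 26.6 in wild-type SLFN11, from 38.2 to 28.8 in E669Q and from 25.0 to 23.0 in vector, lower with CPT in each line. For all other intervals the ratio was also below that of depth in wild-type SLFN11 and E669Q, and above it in vector. Whether interval number rises in proportion to depth was not tested.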

How the results depend on the processing

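No paired analysis was possible because each group is 1 library, apart from the sign-flip tests over the 3 lines, which pair DMSO and CPT by line. In lists of matched length (the 5246 strongest intervals by −log10 p) the member ratio of CPT over DMSO was reversed in wild-type SLFN11, at 1.08 (25 and 27 intervals), and was 0.364 in E669Q (33 and 12). The cause was not tested. With −log10 q of at least 5 it was 0.208 in wild-type SLFN11 and 0.92 in E669Q (25 and 23 intervals), against 1.25 with all intervals, so that E669Q turned from above to below 1 within its counting interval. The share of members found again was 12.8% in wild-type SLFN11 and 27.5% in E669Q when overlap had to cover 50% of both intervals. It was 10.4% in wild-type SLFN11 with −log10 q of at least 5 in both lists and 33.3% in E669Q at matched length. The median fold difference was -0.45 with −log10 q of at least 5, higher in 1 of 6 libraries, and its unadjusted exact permutation p went from 0.031 to 0.0625. The median width difference was 18.7 bp there and 2.50 bp in the histone-dense segments (both histone runs and chromosome 1), against -21.25 bp. In those segments 0% of sites were in all 6 libraries, and 2 sites were in all SLFN11 libraries and no vector library, against 0 with −log10 q of at least 5 and 0 at matched length. Apart from the named intervals, the other recomputed values stayed within their error or on their side of the threshold. Of the 30 named gained or lost intervals, 26 kept their call at matched length. With −log10 q of at least 5 it was 25, and with a fold of at least 5 it was 28. All 30 kept it with 50% overlap, and 2 had a counterpart within 500 bp. Median summits of 8 to 11 fragments limit what a missing interval shows: it can be a site just under the threshold.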
